A study of Mus musculus with 9 samples.

Results

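The control 2-cell mouse embryos form 3 of the 9 libraries of a study of high glucose in early embryos, and they were chosen by their label as the control group. All embryos were of the ICR strain, an outbred mouse stock, and were grown in culture from the zygote to the 2-cell stage. Each library held the RNA of 3 embryos pooled, and the control group carried neither the high glucose load of the other 2 groups nor the rat serum given to 1 of them. The labels give neither the parents nor the sex of the embryos, so the spread between the 3 libraries is a spread between pools, part of which may be technical. The libraries are named replicates 1, 2 and 3, and values are given in that order.

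A mouse egg stores RNA made while the oocyte grew, and this maternal RNA is translated, deadenylated and destroyed after fertilisation. The embryo's own genome is first transcribed strongly at the 2-cell stage, when a set of transient genes such as the Zscan4 cluster comes on. A 2-cell embryo therefore holds both kinds of RNA, and read counts alone do not tell a stored transcript from a new one. The names "maternal" and "newly transcribed" below refer to lists of genes known for oocyte expression or for expression from the embryonic genome at this stage.

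The 5 genes picked as markers of this group were counted in every library. Omt2a and Omt2b, oocyte maturation genes, held ranks 2 and 1 by counts in each library. Zscan4d, a zinc finger gene switched on at genome activation, had 1496, 1023 and 2800 CPM (counts per 1000000 counts of the library). Zfp352, another zinc finger gene of the 2-cell stage, had 177.6, 155.5 and 220.7 CPM. Zp3, a coat protein of the egg's zona pellucida, had the fewest of the 5, with 71.0, 75.0 and 38.5 CPM. Genes known from the oocyte and genes known from the activated genome were thus both counted. The sample labels name none of the 5, and their detection is a description of picked genes and no test.

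The 3 libraries held 14036995, 13757205 and 13991906 counts. Of 24454 genes in the table, 17802 had a count in all 3 libraries and 1988 had none in any. At 1 CPM or more there were 13891, 13983 and 14164 genes, of which 11297 reached that level in all 3 libraries and a further 5495 in only 1 or 2 of them. Protein-coding genes took 93.9% ± 0.402 of counts (SD, n = 3) and long intergenic RNAs 1.78% ± 0.126.

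Counts were concentrated in few genes, and to the same degree in each library. The most counted gene took 2.87%, 3.28% and 3.27% of counts. The 10 most counted genes took 15.1%, 15.4% and 14.5%, and the 100 most counted took 37.2%, 37.0% and 37.0%. It took 268, 278 and 280 genes to reach 50% of counts and 3746, 3679 and 3789 to reach 90%. The identity of the leading genes was less even than their share: 18 genes were among the 25 most counted in all 3 libraries, of 32 that were so in any, and 79 were among the 100 most counted in all 3, of 123 in any. Averaged over the libraries, 120 genes had at least 1000 CPM and together held 39.0% of counts, whereas 7491 genes averaged 10 CPM or more.

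**Figure D1:**
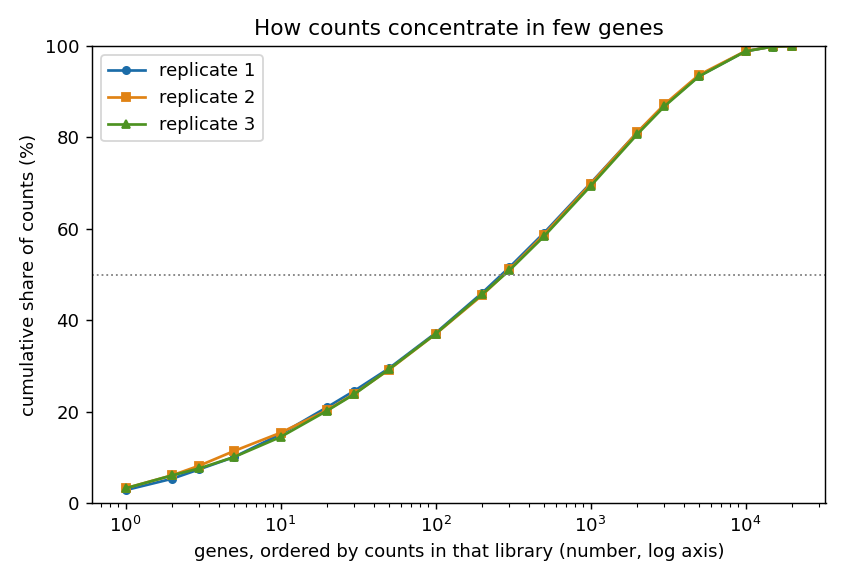
Cumulative share of counts (y axis, %) against the number of genes (x axis, log scale), with genes ordered by their own counts in each library; the dotted line marks 50%. The curves of the 3 control libraries lie on each other and cross the line at 268, 278 and 280 genes.

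Omt2b and Omt2a led every library. Both are named for their expression during oocyte maturation, and both encode small proteins. They lie within 18 kb of each other on chromosome 9 of GRCm38, the assembly that mm10 names, Omt2a on the minus strand (chr9:78311972-78314796) and Omt2b on the plus strand (chr9:78327589-78329620). Omt2b had 28700, 32796 and 32702 CPM, and Omt2a had 24919, 28343 and 28257 CPM. Together they took 5.36%, 6.11% and 6.10% of all counts. Their coefficient of variation (CV, the SD over the mean of the 3 libraries) was 0.0745 for Omt2b and 0.0719 for Omt2a, which places them among the steadier of the abundant genes. The ratio of Omt2a to Omt2b was 0.868, 0.864 and 0.864. The genes share 37.0% of the 50-base stretches of Omt2a's transcripts and 35.2% of those of Omt2b, and reads from shared stretches cannot be assigned to either. The longest run that their coding sequences have in common is shown as an example of that likeness, and it accounts for few of the shared stretches, most of which lie outside it. It is 59 bases long in the GENCODE coding sequences. In Omt2a it runs from base 184 to 242 of 314 bases annotated as coding. In Omt2b it runs from base 241 to 299 of 357. An intron divides it in both genes. Aligned end to end, the coding sequences as annotated were 56.6% identical. The 314 bases of Omt2a are not a whole number of codons, so its annotated sequence is incomplete. The 56.6% may therefore not hold for the full coding sequences.
Omt2a and Omt2b shared run: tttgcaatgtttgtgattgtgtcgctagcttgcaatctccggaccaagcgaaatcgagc
The likeness does not reach into the region before the genes. Aligned end to end, the 250 bases before each start in RefSeq were 43.0% identical between Omt2a and Omt2b, against 42.8% between Omt2a and Zscan4d.

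The other maternal genes among the 25 most counted came from several roles. Dppa3, or Stella, a chromatin factor of oocyte and zygote that protects maternal DNA methylation, had 13409, 21161 and 15372 CPM (chr6:122626410-122630272). Oog3, an oocyte gene of the PRAME family, had 10942, 16650 and 11289 CPM (chr4:144157557-144162663). Spin1, spindlin, a reader of histone marks that is abundant in the egg, had 7559, 11502 and 8342 CPM. For these 3 genes replicate 2 stood above the other libraries, by 1.58-fold, 1.52-fold and 1.52-fold between the highest and the lowest. Oog1, a relative of Oog3, had 5207, 4775 and 8877 CPM, and its near copy Gm2042 followed it with 4869, 4547 and 7891 CPM, both highest in replicate 3. Zbed3, a member of the subcortical maternal complex, had 2852, 4481 and 4783 CPM. Oosp3, an oocyte-secreted protein gene, had 4238, 4579 and 3219 CPM, and E330034G19Rik, of the list of other oocyte genes, had 3866, 3851 and 5341 CPM. Btg4, the adaptor that brings the CCR4-NOT deadenylase to maternal mRNA for its clearance, had 2734, 2493 and 7164 CPM. Its CV of 0.637 was the highest of the 25 most counted genes, whose median was 0.244.

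The 25 also held genes outside the maternal and newly transcribed lists. Ubb, which encodes polyubiquitin, had 20764, 15147 and 13256 CPM, and the annotated pseudogene Gm1821 had 9010, 6597 and 5651 CPM. Gm1821 shares 84.9% of its 50-base stretches with another gene, mainly Ubb, and its ratio to Ubb was 0.434, 0.436 and 0.426, so the pseudogene's value cannot be read apart from Ubb. Mphosph6, an RNA exosome cofactor, had 4729, 6204 and 9279 CPM. Ube2d3, a ubiquitin-conjugating enzyme, had 7864, 4843 and 3215 CPM, and Ptges3, the HSP90 co-chaperone p23, had 5574, 5895 and 4283 CPM. The iron store gene Fth1 had 5350, 3643 and 3288 CPM. Pkd2l2, of the polycystin channel family, had 4068, 4399 and 2700 CPM. AA545190, annotated as a long intergenic RNA on chromosome 6, had 5088, 4310 and 4011 CPM, and belongs to none of the lists. The remaining 6 of the 25, namely BB287469, Gm4027, Gm2022, Gm2016, Gm5662 and Gm8300, are Eif1a-like genes and are described with the newly transcribed lists.

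**Figure D2:**
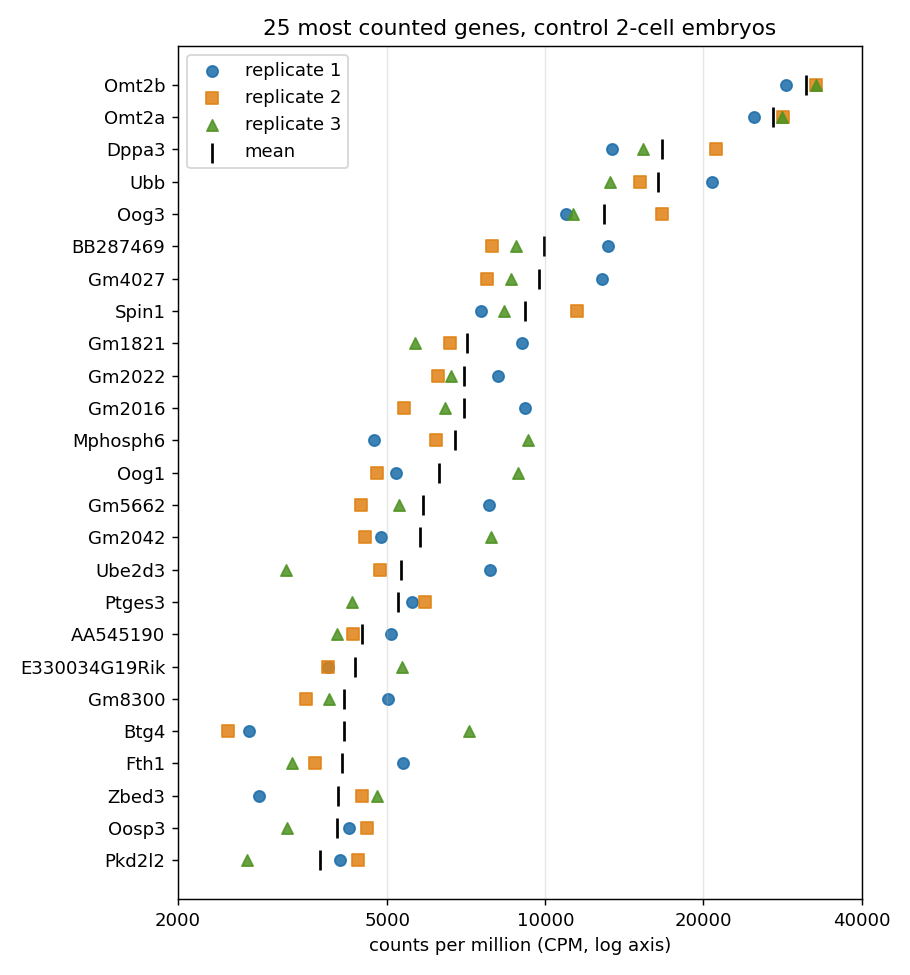
CPM (x axis, log scale) of the 25 genes with the highest mean CPM (y axis), 1 point per control library, with the mean as a vertical bar. Omt2b and Omt2a stand apart at the top with little spread, while Btg4 runs between 2493 and 7164 CPM.

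Levels of different genes were compared as TPM, counts per kilobase of annotated exon scaled to a sum of 1000000 in each library. Omt2b had a mean of 38821 ± 3365 TPM, Dppa3 35559 ± 7894 TPM and Omt2a 35453 ± 2985 TPM (SD, n = 3), and the ranges of the 3 genes over the libraries overlapped, although Omt2b was above Omt2a in each library. Gm2022, an Eif1a-like gene with a single annotated exon of 435 bases, followed with 30716 ± 4427 TPM. Gm2022 shares 97.2% of its 50-base stretches with other genes, so its value and its place cannot be read apart from theirs. Ubb came next with 18654 ± 4238 TPM, and its highest library, at 23503 TPM, lay below the lowest of Gm2022, at 26648 TPM. Gm1821, with 13882 ± 3230.4 TPM, was below Ubb in each library, and its range overlapped that of Oog3, which had 13230 ± 2942 TPM. BB287469 with 10276 ± 2866 TPM, Gm4027 with 10037 ± 2773 TPM and Cks2 with 9932 ± 1682 TPM completed the 10 highest. Cks2, a small partner of cyclin-dependent kinases, had the most TPM of the 27 listed cell cycle genes. The same 10 genes were the highest when the longest transcript replaced the union of exons as the length. For Gm2022, Oog3, BB287469, Gm4027 and Cks2 both lengths are the same, so only the scaling changed for them.

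Maternal genes took more of the counts than newly transcribed ones in each library. Of 146 listed maternal genes, the 139 in the table took 14.7%, 17.5% and 17.3% of counts (16.5% ± 1.54, SD, n = 3). Of these, 132 reached 1 CPM in all 3 libraries. Of 91 listed newly transcribed genes, the 72 in the table took 7.48%, 4.99% and 6.44% (6.30% ± 1.25), and 67 of them reached that level. The shares and ratios therefore leave out more of the newly transcribed lists than of the maternal ones. The ratio of newly transcribed to maternal counts was 0.508, 0.286 and 0.372, so it was highest in replicate 1 and lowest in replicate 2. That order rests on the Eif1a-like list: without it the newly transcribed share was 1.28%, 1.03% and 2.02%, and the ratio was 0.0872, 0.0588 and 0.117, highest in replicate 3. As shares of TPM the classes took 20.3% ± 1.90 and 8.85% ± 1.69. The median member had 94.0 CPM in the maternal class and 106.0 CPM in the newly transcribed class, beside 43.4 CPM over 516 genes of general cell machinery and 2.64 CPM over all genes in the table. These lists were drawn up from genes known at this stage, so their place above the median of all genes is a description of the lists.

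The newly transcribed share rested on genes that share sequence with other genes. Of its 72 genes, 44 share over 10% of their 50-base stretches with another gene, as do 34 of the 139 maternal genes. That limit also takes in genes that are not near-identical to another, such as Gm8300, which shares 26.6%. With all genes over the limit left out of the lists and of the 300 most counted genes, the shares were 7.85% for maternal and 0.406% for newly transcribed genes. Their ratio was 0.0520. How the authors treated reads that match several places is not given in the sources used here, so the larger value depends on that unknown step. Gm13871, which shares all of its stretches with other genes, and Gm11757 both had 17560, 31155 and 49428 counts. A read may thus have been counted for more than 1 gene, and a summed share may hold it more than once. This was not tested.

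**Figure D3:**
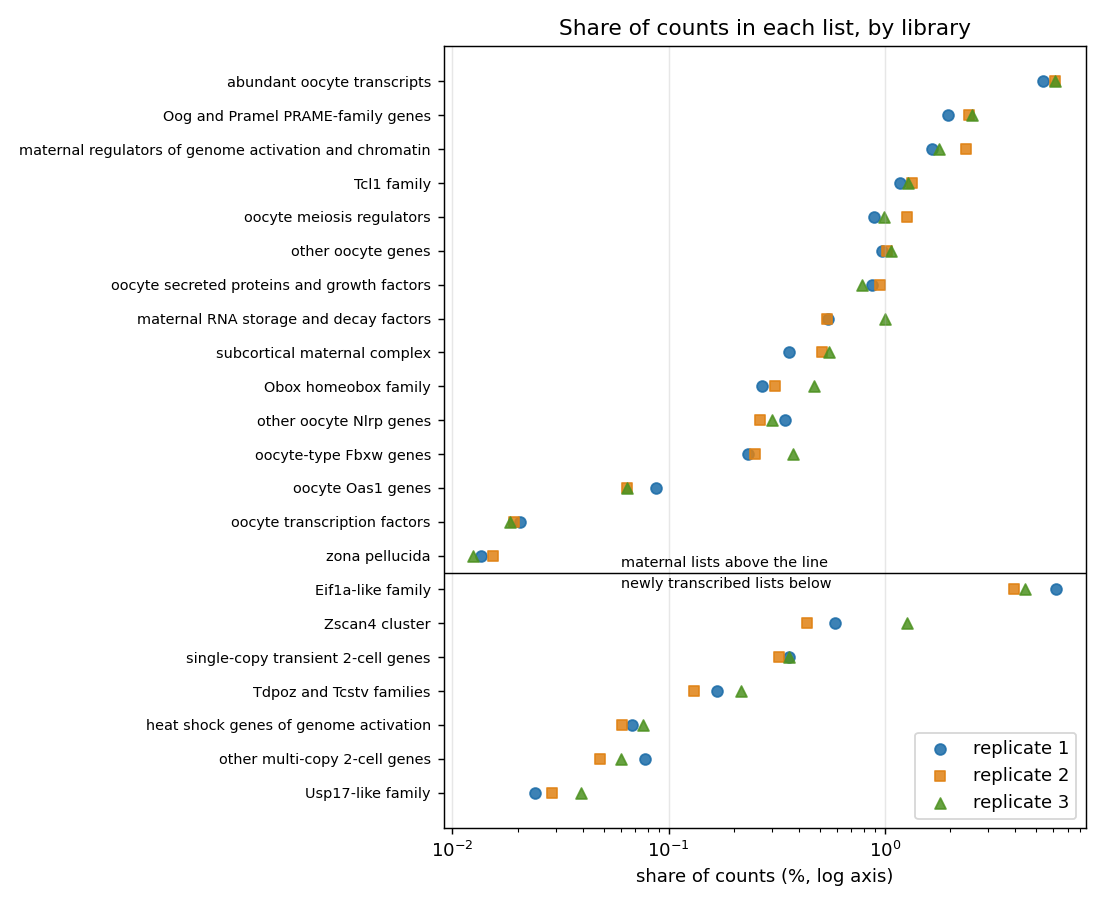
Share of all counts (x axis, %, log scale) taken by each list of genes (y axis), 1 point per control library; maternal lists are above the line and newly transcribed lists below it. The Eif1a-like family and the Zscan4 cluster lead the newly transcribed lists, and the Zscan4 cluster shows replicate 3 at 1.27%, against 0.587% and 0.434% in the other libraries.

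The median member of the zona pellucida list had 43.5 TPM and that of the oocyte-secreted list 212 TPM. The zona pellucida genes Zp3, Zp2 and Zp1 had means of 88.2 ± 26.6, 43.5 ± 12.4 and 14.3 ± 7.90 TPM. Zp2 had 50.4, 55.2 and 79.4 CPM, highest in replicate 3, where Zp3 and Zp1 were lowest. The oocyte-secreted proteins Oosp3 and Oosp1, neighbours on chromosome 19, had 9280 ± 1366 and 6808 ± 139 TPM. Oosp1 was one of the steadiest abundant genes, with 3550, 3580 and 3269 CPM. Bmp15 and Gdf9, growth factors by which the oocyte signals to the follicle, had 518 ± 168 and 167 ± 51.7 TPM.

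The subcortical maternal complex, a protein assembly of the egg cortex needed for the first cleavages, was uneven. Zbed3 had 3466 ± 938 TPM, Nlrp4f 186 ± 53.7 TPM and Ooep 184 ± 70.5 TPM. Padi6 had 26.6 ± 9.59 TPM and Nlrp5, or Mater, 19.3 ± 7.68 TPM. Among the other oocyte Nlrp genes, Nlrp9c led with 718 ± 145 TPM, followed by Nlrp9a with 129 ± 28.3 TPM. Nlrp4e, Nlrp4g and Nlrp14 lay at 95.7 ± 26.3, 95.3 ± 5.13 and 67.2 ± 8.51 TPM, with Nlrp4e sharing 36.7% of its stretches with another gene.

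Of the 21 genes of maternal RNA storage and decay, all reached 1 CPM in every library. Btg4 was ahead with 3128 ± 2095 TPM, and Cnot7, a deadenylase subunit of CCR4-NOT, followed with 327 ± 32.8 TPM. The RNA storage genes were lower: Lsm14b had 147 ± 64.2 TPM, Zar1l 73.0 ± 35.004 TPM and Ybx2, the germ cell Y-box protein, 67.9 ± 23.8 TPM. Btg4 held most of the difference between libraries in this list: it had 7164 CPM in replicate 3, where the whole list took 1.01% of counts, against 0.546% and 0.537% in replicates 1 and 2. Over the 19 members that averaged 10 CPM or more, the median log2 ratio of replicate 3 to the mean of the other libraries was 0.17.

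Regulators of meiosis were led by Spin1 with 3869 ± 802 TPM. Wee2, the oocyte kinase that holds meiotic arrest, had 501 ± 153 TPM, and Fbxo5, the APC/C inhibitor EMI1, had 236 ± 67.6 TPM. Aurkc, the germ cell aurora kinase, and Cdc20, an activator of APC/C, had 90.2 ± 48.9 and 89.2 ± 20.4 TPM. Among maternal regulators of chromatin and genome activation, Npm2, a histone chaperone of the egg, had 1175 ± 365 TPM and H1foo, the oocyte linker histone, 766 ± 244 TPM. Ube2a, a ubiquitin-conjugating enzyme, had 302 ± 120 TPM and Kdm1b, a histone demethylase needed for maternal imprints, 98.5 ± 17.7 TPM. Oocyte transcription factors were low: Nobox had 69.5 ± 39.6 TPM, Taf4b 24.5 ± 4.71, Lhx8 20.3 ± 5.84, Gtf2a1l 12.8 ± 7.95 and Figla 9.12 ± 3.11 TPM.

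Several maternal lists are gene families that lie in clusters. The Tcl1 family, activators of AKT kinase expressed in egg and early embryo, was the steadiest of these lists. Its median CV was 0.0929 over its 6 genes, beside 0.198 for the abundance bin of the median member. Of the 6, 4 share over 10% of their stretches with another gene, so their counts may not be separate. Tcl1b1 had 2631, 3617 and 3779 CPM, Tcl1b2 had 2602, 2996 and 2507 CPM, and Tcl1 itself had 3051, 3091 and 3399 CPM. Tcl1b3 and Tcl1b4 had 3058 ± 180 and 1477 ± 91.8 TPM. In the Oog and Pramel list, C87977, C87414 and C87499 followed Oog3 and Oog1 with 998 ± 536, 648 ± 165 and 446 ± 141 TPM.

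In the Obox, Fbxw and Oas1 families most members were highest in the same library. Over the 7491 genes that averaged 10 CPM or more, 32.6% were highest in replicate 1, 32.5% in replicate 2 and 34.9% in replicate 3. Obox genes, a rodent homeobox family, were highest in replicate 3 for 5 of 6 members. Of the 6, 5 share over 10% of their stretches with another gene, inside or outside the list, so their counts may not be separate. Obox3 had 99.7, 174.6 and 502.1 CPM. Obox5, Obox1 and Obox2 had 1504 ± 540, 795 ± 211 and 654 ± 134 TPM, while Obox6, the member that was highest in replicate 2, had 243 ± 106 TPM. Oocyte-type Fbxw genes, of the F-box family, were highest in replicate 3 for 9 of 12 members, 5 of the 12 with such sharing. Fbxw24, Fbxw28 and Fbxw14 led with 751 ± 313, 710 ± 188 and 597 ± 211 TPM, ahead of Fbxw15 with 225 ± 53.7 and Fbxw18 with 173 ± 21.1 TPM. All 5 oocyte Oas1 genes, led by Oas1f with 248 ± 79.1 TPM and Oas1d with 164 ± 24.97 TPM, were highest in replicate 1. Oas1e, Oas1c and Oas1h had 147 ± 20.2, 127 ± 21.8 and 60.1 ± 17.7 TPM. Of other oocyte genes, E330034G19Rik had 4578 ± 1053 TPM, Bcl2l10, an anti-apoptotic BCL2 relative of the oocyte, 2977 ± 757 TPM and Rfpl4 2064 ± 528 TPM. Sebox, an oocyte homeobox gene, had 1759, 1219 and 544.5 CPM, and D6Ertd527e 221.1, 200.7 and 438.9 CPM.

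The Eif1a-like family, multi-copy relatives of the translation initiation factor gene Eif1a on chromosome 12, was the largest newly transcribed list by counts. Its 8 genes took 6.20%, 3.96% and 4.42% of counts. All 8 were highest in replicate 1, as were 32.6% of all genes that averaged 10 CPM or more. Each of the 8 shares over 10% of its stretches with another gene, inside or outside the list, so their counts may not be separate. BB287469 had 13157, 7917 and 8797 CPM (chr12:87816577-87820676), and Gm4027 had 12811, 7734 and 8617 CPM (chr12:87618869-87622955). The ratio of Gm4027 to BB287469 was 0.974, 0.977 and 0.980, and they share 94.4% and 96.6% of their stretches with another gene of the group, so their counts are not separate measurements. Gm2016 had 9147, 5381 and 6439 CPM, Gm2022 had 8129, 6238 and 6612 CPM, and Gm5662 had 7820, 4462 and 5268 CPM. Gm8300, which shares 26.6% of its stretches, had 5028, 3505 and 3868 CPM. Gm21319 shares the least of the 8, with 13.1% of its stretches, and it too was highest in replicate 1.

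The Zscan4 cluster on chromosome 7, zinc finger genes that mark genome activation and telomere lengthening, showed the widest spread between libraries of any list with at least 5 genes above 10 CPM on the newly transcribed side. It took 0.587%, 0.434% and 1.27% of counts. All 5 genes were highest in replicate 3, as were 34.9% of all genes that averaged 10 CPM or more. All 5 share over 10% of their stretches with another gene, inside or outside the list, so their counts may not be separate. Zscan4f had 1515, 1220 and 3484 CPM, Zscan4c had 1465, 1068 and 3235 CPM, and Zscan4d had 1496, 1023 and 2800 CPM. Zscan4a and Zscan4b had 1130 ± 723 and 574 ± 376 TPM. The list's median CV was 0.600, beside 0.198 for all genes in the bin of its median member. More RNA in each cell and more cells that carry the RNA cannot be told apart in pooled embryos.

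The other newly transcribed lists took smaller shares. Tcstv and Tdpoz genes took 0.168%, 0.131% and 0.216% of counts. Tcstv3, AF067063 and AF067061 had 800 ± 287, 659 ± 289 and 631 ± 160 TPM, and Tcstv1 had 409 ± 109 TPM. Tdpoz5, which shares all of its stretches with other copies, had 307 ± 112 TPM. Of the Usp17-like deubiquitinase genes, Usp17lb had 116, 121 and 282 CPM, while Usp17la, Usp17le, Usp17ld and Usp17lc lay between 22.4 and 37.8 TPM. Other multi-copy genes, Gm21312, Gm6763, Gm4340 and Gm8994, had 247, 247, 219 and 167 TPM, and Gm21312 and Gm6763 are identical over all their stretches and had the same counts.

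Genes that are mostly single-copy and transient at this stage gave the steadiest newly transcribed share, with 0.361%, 0.324% and 0.359% of counts over 32 genes. Cwc15, a spliceosome protein, led with 999, 891 and 847 CPM. Tmem92 had 361, 272 and 316 CPM, and Klf17, a Krüppel-like transcription factor of early embryos, had 334, 267 and 323 CPM. Pramef25, Zfp352 and Arg2, mitochondrial arginase, had 344 ± 65.5, 156 ± 33.1 and 184 ± 48.8 TPM. All 3 of Cwc15, Tmem92 and Klf17 lay within 1.5-fold over the libraries, in contrast to the Zscan4 genes. The heat shock genes known for their early induction took 0.0674%, 0.0608% and 0.0765% of counts. Hsp90aa1 had 277, 253 and 308 CPM, and Hsp90ab1, Dnajb1, Hspa8 and Hspb1 had 67.9 ± 8.87, 63.0 ± 2.76, 62.8 ± 16.9 and 21.2 ± 9.0005 TPM.

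The upstream sequences of 3 newly transcribed genes are shown because copies within the Zscan4 cluster can be compared and because Zfp352 carries a repeated motif. Each is the 250 bases before the start given by RefSeq on GRCm38.p6. Zscan4d is on the minus strand (chr7:11166149-11166398), and Zscan4c (chr7:11005495-11005744) and Zfp352 (chr4:90218570-90218819) are on the plus strand. Capitals mark TATAAA in the Zscan4 genes and TAATCC, which is GGATTA read on the other strand, in Zfp352.
Zscan4d: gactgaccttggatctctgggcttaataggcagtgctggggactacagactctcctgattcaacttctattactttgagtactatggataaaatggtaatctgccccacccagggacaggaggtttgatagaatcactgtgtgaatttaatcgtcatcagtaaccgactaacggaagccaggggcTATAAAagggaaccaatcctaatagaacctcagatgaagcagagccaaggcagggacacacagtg
Zscan4c: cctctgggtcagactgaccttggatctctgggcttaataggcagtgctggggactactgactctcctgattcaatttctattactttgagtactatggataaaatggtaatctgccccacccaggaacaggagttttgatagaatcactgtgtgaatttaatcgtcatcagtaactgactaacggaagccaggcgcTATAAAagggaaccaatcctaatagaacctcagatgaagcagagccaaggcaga
Zfp352: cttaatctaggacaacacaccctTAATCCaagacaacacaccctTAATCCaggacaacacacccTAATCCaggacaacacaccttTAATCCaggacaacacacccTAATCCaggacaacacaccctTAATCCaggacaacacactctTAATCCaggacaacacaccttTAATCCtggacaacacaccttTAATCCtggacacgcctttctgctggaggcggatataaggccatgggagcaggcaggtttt
The Zscan4d and Zscan4c sequences were 88.9% identical when aligned, and both hold TATAAA, the consensus of the TATA box, with its first base at -65 and -54 from the start. Zfp352 holds GGATTA 9 times, each time on the opposite strand, and it was the only gene with as many among 17289 promoters searched, of which 57 held at least 2 copies. GGATTA is the core recognised by homeobox proteins of the bicoid type, which include OTX and CRX.

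Both motifs were counted on both strands in the same 250 bases of every promoter in the table. GGATTA was present in 11 of 43 newly transcribed promoters (25.6%), 8 of 105 maternal promoters (7.62%) and 29 of 404 promoters of general machinery (7.18%), beside 1036 of 17289 promoters in all (5.99%). The 11 came from 3 of 3 Eif1a-like promoters, 2 of 4 in the Tdpoz and Tcstv list, 2 of 2 other multi-copy promoters and 4 of 21 single-copy promoters, so several are copies of each other. TATAAA was present in 8 of 43 newly transcribed promoters (18.6%), 9 of 105 maternal promoters (8.57%) and 31 of 404 of general machinery (7.67%), beside 11.9% of all. All 4 Zscan4 promoters and 3 of 4 Usp17-like promoters held it, which leaves 1 among the other newly transcribed promoters. A match says only that the letters are present.

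Genes of general cell machinery took 8.29%, 9.17% and 7.23% of counts over 516 genes, less than the maternal lists in every library. Cytoplasmic ribosomal proteins, the largest of these lists, took 2.22%, 3.07% and 1.98%, and 64 of 87 genes were highest in replicate 2, as were 32.5% of all genes that averaged 10 CPM or more. Rps27l had 6004 ± 603 TPM, Rplp1 3344 ± 1623 TPM and Rpl41 2657 ± 908 TPM, ahead of Rps3a1 with 1718 ± 501 and Rplp0 with 711 ± 165 TPM. Of the 87 genes, 69 share over 10% of their stretches with another gene, inside or outside the list. Rplp1 shares most with Gm10073 and Rps27l with Gm14706, both outside it. Reads from shared stretches cannot be assigned to either gene, and how far the 87 share with each other was not measured. Translation factors took 1.17% ± 0.115 of counts. Eif1 had 2037 ± 460 TPM and Paip1, which binds poly(A)-binding protein, 1668 ± 298 TPM, ahead of Eef1a1 with 448 ± 141, Eif1b with 375 ± 131 and Eif3i with 269 ± 69.5 TPM.

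Cell cycle genes took 0.908% ± 0.0325 of counts. After Cks2, its relative Cks1b had 2284 ± 215 TPM, the checkpoint gene Mad2l1 524 ± 44.0 TPM, and the mitotic cyclins Ccnb1 and Ccna2 308 ± 86.9 and 125 ± 45.98 TPM. Among histones the replacement variants led, with H2afz at 2244 ± 361 TPM, H3f3a at 782 ± 228 TPM and H3f3b at 744 ± 33.0 TPM. Hist1h1a had 98.5 ± 27.99 TPM and the histone mRNA binding protein gene Slbp 65.1 ± 12.4 TPM, while the median of the 22 histone genes was 1.93 CPM. Replication-dependent histone mRNAs lack poly(A) tails, and whether the libraries were selected on poly(A) is not given in the sources used here.

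Energy and stress genes followed a pattern with a few leaders. In glycolysis, Ldhb, the lactate dehydrogenase subunit of eggs, had 1668 ± 168 TPM, whereas Gapdh had 69.3 ± 11.97, Aldoa 48.5 ± 13.7, Pgam1 31.2 ± 6.90 and Pgk1 26.6 ± 5.99 TPM. In pyruvate oxidation and the citrate cycle, Mpc1, a subunit of the mitochondrial pyruvate carrier, had 1017 ± 263 TPM, and Cs, Mdh2, Pdhb and Sucla2 lay between 33.8 and 51.4 TPM. Pdhb had 153.5, 43.1 and 44.7 CPM, so its mean rests on replicate 1. Among glucose transporters, Slc2a1 had 29.9, 56.3 and 9.51 CPM and Slc2a3 had 28.9, 11.8 and 4.57 CPM, while Slc2a8, Slc5a2 and Slc2a10 were under 5 CPM on average. In the respiratory chain, Cox8a had 1587 ± 441, Cox7a2 894 ± 179, Ndufb6 740 ± 72.5, Ndufa4 390 ± 20.2 and Ndufb11 380 ± 14.4 TPM. Of the antioxidant genes, the peroxiredoxins Prdx1 and Prdx2 had 1320 ± 332 and 1251 ± 208 TPM, ahead of Gpx4 with 161 ± 38.5, Gpx1 with 124 ± 35.9 and Sod1 with 99.7 ± 32.9 TPM.

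The other lists of general machinery each had a few leading genes. The spliceosome proteins Snrpg and Snrpe had 2104 ± 255 and 641 ± 129 TPM, and Lsm1, Snrpd1 and Lsm7 had 268 ± 34.6, 199 ± 67.3 and 179 ± 11.8 TPM. Npm1, nucleophosmin, led the nucleolar list with 2065 ± 78.2 TPM, ahead of Nop10, Nhp2, Nop56 and Dkc1 with 311 ± 16.9, 271 ± 36.5, 47.7 ± 10.9 and 46.7 ± 15.2 TPM. Mitochondrial ribosomal proteins were led by Mrps14, Mrps33, Mrpl18, Mrpl40 and Mrpl53, all between 242 and 347 TPM. Proteasome subunits were led by Psmb2 with 251 ± 67.5 TPM, followed by Psma2, Psmd4, Psma1 and Psma4 between 85.7 and 114 TPM. The cytoskeletal genes Cfl1 and Actb had 378 ± 65.7 and 193 ± 43.7 TPM, and the tubulins Tuba1c, Tubb4b and Tuba1a lay between 65.5 and 88.7 TPM.

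Regulators known from later stages ranged from no count to over 100 CPM. Of the pluripotency factors, Dppa2 had 236.2, 129.8 and 87.5 CPM and Pou5f1, or Oct4, had 229.0, 118.3 and 39.6 CPM. Dppa4 had 45.6, 107.9 and 89.8 CPM, Sall4 had 106.0, 187.5 and 140.8 CPM, and Klf4 had 56.6, 48.1 and 50.5 CPM. Pou5f1 and Dppa2 were thus highest in replicate 1, while Sall4 and Dppa4 were highest in replicate 2. Trophectoderm factors were led by Gata3 with 43.0, 42.7 and 46.4 CPM, and Tfap2c, Cdx2, Fgfr2 and Tfap2a had means of at most 16.4 CPM. Of the primitive endoderm list, Dab2 had 94.2 ± 21.02 CPM and Gata4, Hnf4a, Gata6 and Foxa2 had under 5 CPM on average. Krt7 and Sox7 had no count in the 3 libraries, for which 3 counts in a library is the upper limit that a count of 0 allows, for counting error only.

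In the list of DNA methylation and imprint maintenance, Zfp57, which protects imprints, led with 388, 466 and 424 CPM. Dnmt3l, Mbd2, Mbd3 and Dnmt3a lay between 5.34 and 28.6 TPM. The imprinted genes were led by Snrpn at 104 ± 28.4 and Mest at 48.3 ± 26.7 TPM. Cdkn1c, Impact and Zrsr1 had 12.2, 9.46 and 4.92 TPM, and H19 and Ndn had no count. On the sex chromosomes, Rlim, an X-linked ubiquitin ligase stored in the egg, had 108.4, 117.4 and 168.6 CPM. The Y-linked gene Eif2s3y had 0.997, 2.69 and 28.8 CPM and the Y-linked gene Zfy2 had 1, 0 and 88 counts. Uty had 2.56, 1.09 and 7.86 CPM and Sry had 0.499, 0.654 and 0.0715 CPM. The first 3 of these Y-linked genes were highest in replicate 3 and Sry was lowest there. The sex of the embryos in each pool is not given, and its part in these values was not tested.

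Of the lists of markers for cells that could cling to the embryos, the cumulus list was near 0, while single genes of the other lists were among the more counted genes. The median member had 0.621 CPM in the cumulus list, 0.992 in the sperm list, 0.275 in the blood list and 1.87 in the oviduct list, beside 2.64 CPM over all genes. The 16 cumulus and granulosa genes took 0.00261%, 0.00422% and 0.00223% of counts, none had a mean of 10 CPM, and Ptx3 and Fst had no count in any library. Amhr2 was the highest of them by TPM, with 6.63, 12.2 and 6.43 CPM, and Tnfaip6, Cyp19a1, Igfbp5 and Hsd3b1 had means of at most 6.79 CPM. The 11 sperm genes took 0.0121%, 0.00783% and 0.0133%, led by Odf2 with 86.4 ± 32.1 CPM and Ldhc with 11.3 CPM. Prm2 had 6.82 ± 3.46 CPM, and Tnp2 and Gapdhs had 0.992 and 2.06 CPM. The 12 blood genes took 0.0311%, 0.0244% and 0.0369%, most of it from Hba-a1 and Hba-a2, which had the same counts as each other and 142.6, 109.5 and 168.4 CPM. Cd74 had 20.4 ± 6.02 CPM, Fcer1g and Tyrobp 6.23 and 0.502 CPM, and Ptprc had no count. Among 13 oviduct genes Epcam, which embryos also express, had 56.9, 104.5 and 51.2 CPM, while Pecam1 and Cdh1 had 25.2 and 18.4 CPM, Lum and Ovgp1 6.499 and 5.32 CPM, and Col3a1 no count.

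Some of the most counted genes lay close together on the genome. Of the 99 of the 100 most counted genes that could be placed, 27 lay in 9 runs in which neighbours were within 100 kb and the rest did not, and how often other genes form such runs was not computed. On chromosome 12 the first run held Gm8300, Oog1, Gm4027 and Gm16381 (chr12:87514316-87644620), and the second held Gm21319, BB287469, Gm2016, Gm2022 and Gm2042 (chr12:87772425-87960683). A further run held Gm10436, Gm5662 and Gm5039 (chr12:88175589-88324026), and 4 Tcl1 genes formed another (chr12:105146014-105222793). Eif1a-like and Oog1-like genes were thus interleaved. Genes of these runs that are named nowhere else, such as Gm16381 and Hypk, were named for their place after the values were seen. The other runs held Oosp1 and Oosp3 on chromosome 19, Oog3 and C87977 as well as Gm11758, Gm11757 and Gm13871 on chromosome 4, Serf2 and Hypk on chromosome 2, and the Omt2 pair. Chromosome 12 took 10.2% ± 1.09 of counts with 818 genes, and chromosome 9 took 10.9% ± 0.705 with 1337 genes.

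No pair of libraries held the same counts within sampling noise, so each was kept as a library of its own. The chi-square per degree of freedom was 87.7 for replicates 1 and 2, 103 for 1 and 3, and 89.8 for 2 and 3. Over the 7491 genes that averaged 10 CPM or more, 26.7%, 27.2% and 23.9% of genes differed by more than 2-fold in these pairs. The Pearson correlation of log2 CPM across those genes was 0.812, 0.812 and 0.848, and genes are not independent replicates. The common biological coefficient of variation, the spread between libraries beyond counting error as edgeR estimates it, was 0.519 over 12103 genes.

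Spread fell with abundance. The median CV was 0.726 for genes with a mean of 1 to 10 CPM, 0.448 for 10 to 30, 0.308 for 30 to 100, 0.229 for 100 to 300, 0.220 for 300 to 1000 and 0.198 above 1000 CPM. The CV that counting alone would give had a median of 0.148 in the lowest of these bins and 0.00624 in the highest, far below the spread seen in either. Of genes with a mean of 1 to 10 CPM, 856 (10.8%) had no count in at least 1 library, as did 16 of those at 10 to 30 CPM and none above. Of the 1606 genes with at least 100 CPM, 1311 (81.6%) lay within 2-fold over the libraries, 58 had a CV under 0.05, 77 had one over 0.5 and 0 had one over 1.

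**Figure D4:**
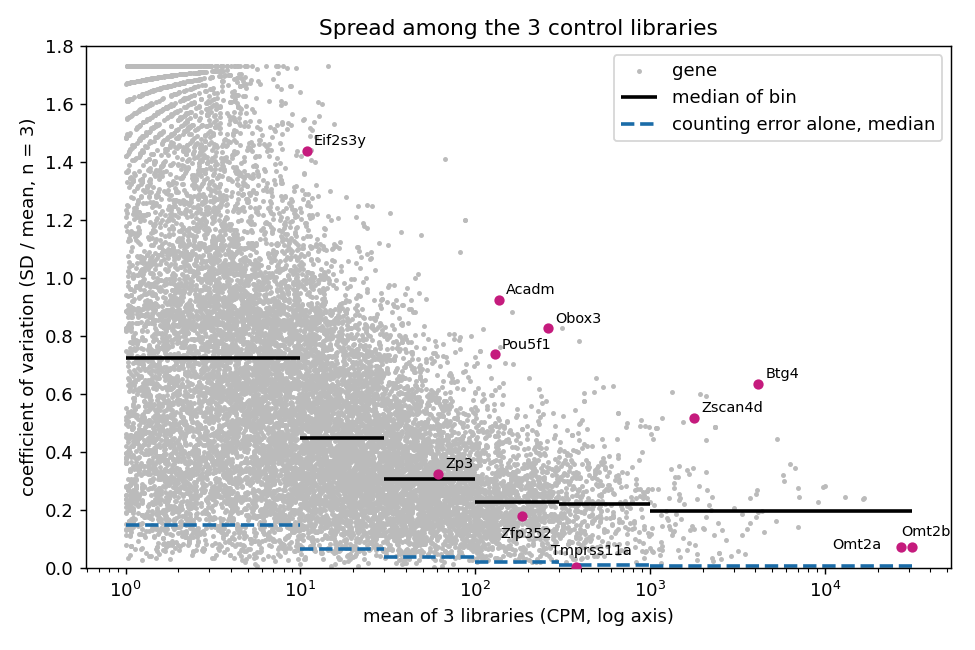
CV over the 3 control libraries (y axis) against mean CPM (x axis, log scale), 1 grey point per gene, with the median of each abundance bin in black and the median expected from counting alone as a dashed line. Omt2a and Omt2b sit low at the right, Btg4 and Zscan4d stand above their bin's median of 0.198, and Acadm, Obox3 and Pou5f1 are among the most variable genes above 100 CPM.

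The steadiest genes above 100 CPM came within a few percent. Tmprss11a, a transmembrane serine protease gene, had 378, 380 and 377 CPM, a CV of 0.00360, which is below the counting error expected at its depth. Rab7, a late endosome GTPase, had 389, 390 and 398 CPM, and H3f3b, a histone H3.3 gene, had 1173, 1136 and 1166 CPM. Hnrnpdl, Ppp1cb, Fam208b, Naa30, Rsph3a, Dbi and Evi5 had CVs between 0.0206 and 0.0253. With 3 values per gene and 1606 genes, the lowest CVs are those picked from many and do not mark these genes as more stable than others.

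The most variable genes above 100 CPM had several roles. Acadm, an enzyme of fatty acid oxidation, had 263.4, 11.9 and 132.2 CPM, a 22.1-fold range. Bnip3, a mitophagy receptor, had 56.8, 325.6 and 104.8 CPM, and Zfp951 had 233.9, 104.3 and 605.1 CPM. Timd2 had 41.1, 183.0 and 84.0 CPM, and Nckap1, of the WAVE actin regulator complex, had 79.6, 118.4 and 296.8 CPM. The ribosomal genes Rps27 and Rpl7 had 75.3, 197.6 and 47.2 CPM and 91.2, 212.5 and 53.7 CPM, and Rps27rt, a copy of Rps27, had the values of Rps27 to within 3 counts in each library. The library with the highest value differed among them, being replicate 1 for Acadm and Pou5f1, replicate 2 for Bnip3, Timd2, Rps27 and Rpl7, and replicate 3 for Zfp951, Nckap1 and Obox3.

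Among genes without a count in at least 1 library, the 10 with the highest mean, predicted names left out, had at most 606 counts in any library. Slc4a10, an ion transporter, had 450, 0 and 187 counts, Stk39, a kinase, had 351, 0 and 268, and Nxf2, an X-linked RNA export gene, had 0, 0 and 606. Muc15 had 434, 96 and 0 counts and Gng2 had 274, 251 and 0. Prom1 had 0, 258 and 251 counts, Arl13b had 0, 258 and 246, and Mdga2 had 0, 191 and 290. Il2rb had 463, 0 and 50 counts and Il17f had 176, 0 and 315. The library without a count differed from gene to gene, and Nxf2 had none in 2 libraries.

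By correlation replicate 1 was the least like the other libraries, and the lists differed in which library was highest. Both pairs with replicate 1 had the lower correlation of 0.812, against 0.848 for replicates 2 and 3. The chi-square per degree of freedom gave another order, with replicates 1 and 2 the lowest at 87.7. Of the 7491 genes with at least 10 CPM, 402, 254 and 314 were more than 2-fold above both other libraries in replicates 1, 2 and 3, and 604, 499 and 445 were more than 2-fold below both. The median over all of these genes of the log2 ratio of a library to the mean of the other 2 was -0.08, -0.03 and -0.01. For the Eif1a-like list it was 0.54, -0.41 and -0.17, and for the Zscan4 cluster -0.55, -1.10 and 1.35. For cytoplasmic ribosomal proteins it was -0.16, 0.51 and -0.53. Glycolysis and the cytoskeleton were low in replicate 3, at -0.65 and -0.69, and the oocyte-type Fbxw genes were high there, at 0.65. Across 7413 genes, a library's log2 ratio correlated weakly with exon length, with Spearman values of -0.12, -0.05 and 0.17, and with GC content, with values of -0.01, 0.15 and -0.13. Their part in the differences between lists was not tested.

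**Figure D5:**
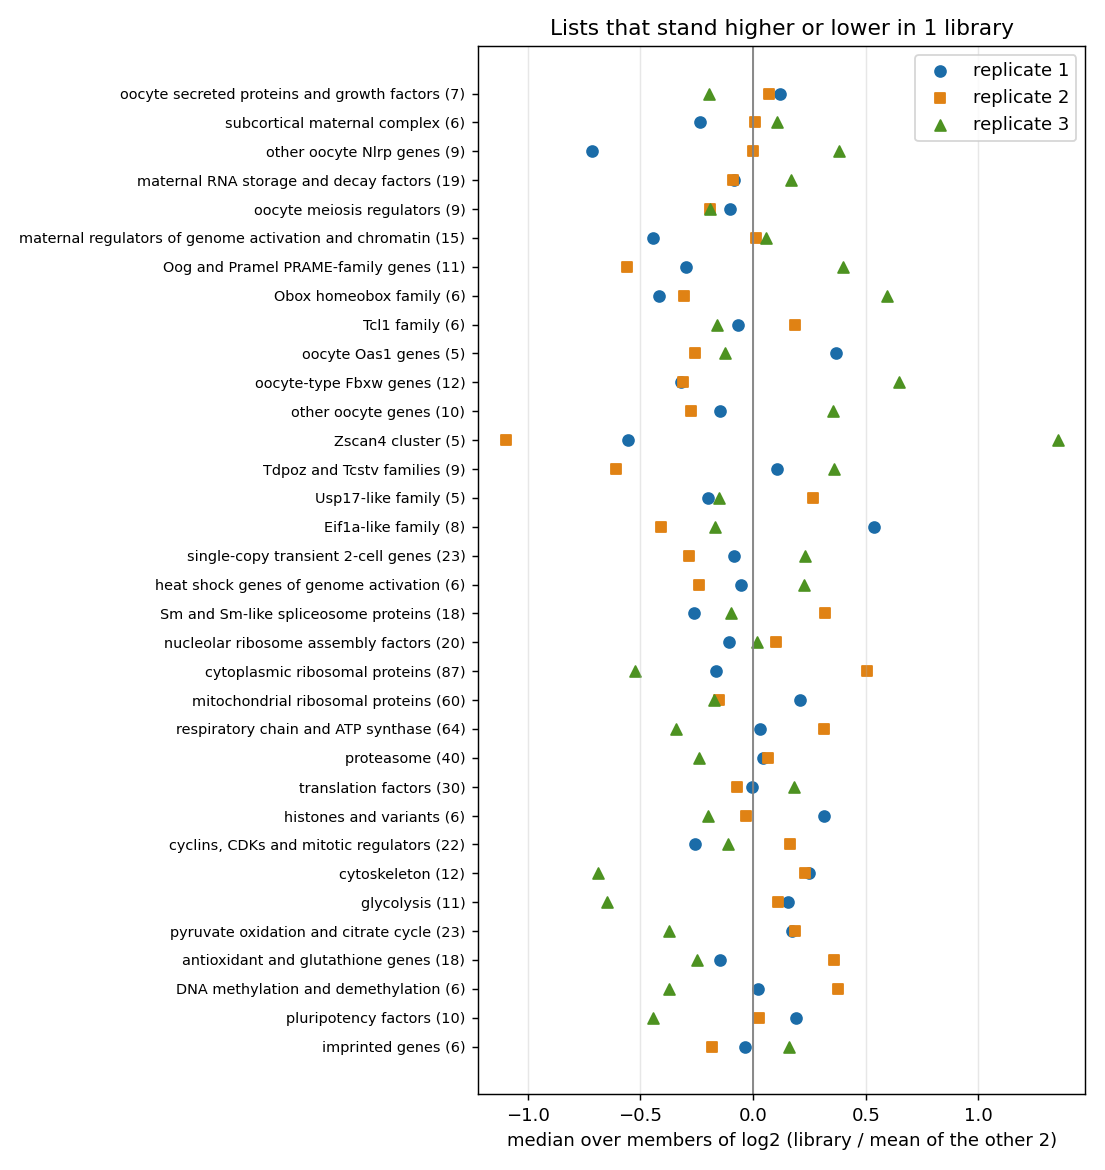
Median over the members of each list of the log2 ratio of 1 library to the mean of the other 2 (x axis), for lists with at least 5 genes of 10 CPM or more (their number in brackets). The Zscan4 cluster lies furthest from 0, at 1.35 in replicate 3 and -1.10 in replicate 2.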

How the data were processed

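RNA of the 3 control libraries was analysed from raw counts of reads per gene symbol that the authors deposited without normalisation. Per the submitters' processing notes, Trim Galore and mm10 were used. The sources used here do not give the aligner, the counter, the annotation, the strand setting or the handling of multi-mapping reads, and without a known strand setting overlapping or antisense genes cannot be told apart.

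CPM are counts per 1000000 counts of the library total. TPM used the union of exons in GENCODE annotation of GRCm38, with 23451 of 24454 genes matched by symbol, 602 through RefSeq synonyms and 401 (0.766% of counts) not matched. A gene's shared sequence is the percentage of 50-base stretches in its transcripts that also occur in transcripts of other genes, and over 10% counted as shared. Promoters came from RefSeq (GRCm38.p6), 1 start per gene. Spread used the CV and edgeR 4.0.16 (R 4.3.3) dispersions with an intercept only, TMM factors and a minimum count of 10, tested on simulated data, and DESeq2 1.42.0 as an alternative. With 1 group there was no comparison and no p-value. Intervals between libraries are SDs, and limits for counts of 0 cover counting error only.

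The 46 lists hold 876 genes, of which 847 were in the table and the rest were not analysed here. Members and lists were chosen with earlier results of these data known. After the counts were seen, BB287469 joined the Eif1a-like list on shared sequence, and AU022751, Gm8994, Gm4340, Gm6763 and Gm21312 moved between lists. Named genes are the 25 highest by CPM and 10 by TPM, the 5 markers, up to 5 of each list by TPM with those at 0, and the 10 highest and lowest by CV above 100 CPM and the 10 highest with a 0 in a library, predicted names left out of the last sets. Alternatives were leaving out each library, thinning to the smallest total, TMM and DESeq2 size factors, no filter, TPM in place of counts, transcript length, the newly transcribed lists without heat shock genes, and leaving out genes with the same counts as another. Leaving out genes of shared sequence, leaving out the Eif1a-like list and the median of the per-gene spread were added after the data were seen.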

Additional observations from a re-analysis of the deposited data

How the results depend on the processing

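No paired analysis was possible because only 1 group was described and no comparison between groups was made. Leaving out genes that share over 10% of their sequence, an alternative chosen after seeing the data, put the maternal share at 7.85%, the newly transcribed share at 0.406%, their ratio at 0.0520 and the share of the 10 most counted genes at 7.49%, and 582 genes then held 50% of counts. Without the Eif1a-like list, also chosen after seeing the data, the newly transcribed share was 1.44% and the ratio 0.0875. As shares of TPM the classes took 20.3% and 8.85%. The median CV was 0.265 to 0.289 with 1 library left out, against 0.333 with all 3, a CV of 2 values being smaller by construction. The common biological coefficient of variation was 0.842 without the filter on low counts and 0.501 to 0.534 with 1 library left out. Its per-gene median of 0.533 became 0.873, 0.507 to 0.538 and, with DESeq2, 0.490. The cause of these shifts was not tested. Size factors, thinning, leaving out genes with the same counts as another and leaving out heat shock genes moved no share, ratio or count of genes by more than the SD of the libraries or 1.5 times. With 3 libraries, an SD is itself uncertain. A count of 0 in a library allows up to 3 counts there, for counting error only, and 856 genes at 1 to 10 CPM and 16 at 10 to 30 CPM had such a 0.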

Other observations

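There were 201 genes whose counts in all 3 libraries equalled those of another gene. They formed 83 distinct profiles and took 2.10% of counts, and the values of genes within a profile are not separate measurements.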
